A study of Mus musculus with 10 samples.

Results

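The genes described here are Il2, which encodes the T cell growth factor interleukin 2, the 3 chains of its receptor (Il2ra, Il2rb and Il2rg), the transcription factors Stat5a and Stat5b, and the feedback gene Cish. They were taken by symbol from the deposited table of gene expression, which held all 7 of them among 17493 genes. Expression was measured by RNA sequencing in Th17 cells, the helper T cell class that makes IL-17, derived from C57BL/6 mouse spleen. In both groups naive CD4 T cells had been stimulated by antibodies to CD3 and CD28, with 20 ng/mL of IL-6 and 2.5 ng/mL of TGF-beta, and cultures lasted 48 to 72 h. One group of 2 libraries had received TMP269, a small molecule inhibitor of the class IIa histone deacetylases, and the other group of 2 libraries, labelled DMSO and control, had not. The sources used here do not give the dose or length of exposure, the age of the mice, or whether IL-2 was added to or blocked in the cultures. They also do not say that replicates came from separate animals or cultures, and so the p-values reflect no more than the scatter among 4 libraries, which may be technical. The 6 chromatin libraries of the series are not analysed here.

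Activated T cells make IL-2 in a short burst and also respond to it. The alpha chain, CD25, raises the affinity of the receptor for IL-2, while the beta chain, CD122, and the common gamma chain, CD132, carry the signal into the cell through the kinases JAK1 and JAK3. These phosphorylate STAT5A and STAT5B, 2 closely related proteins from neighbouring genes, which enter the nucleus and switch on targets that include Il2ra itself and Cish, whose product damps the receptor's signal. In Th17 cells IL-2 and STAT5 are known to oppose Il17a, where STAT5 competes with STAT3.

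Promoter sequences from RefSeq (build GRCm38.p6) were matched by symbol to 6 of the 7 genes, giving 8 windows of 300 bases (250 before and 50 after an annotated start). Stretches of 2 of them are shown, that of Il2 because this gene changed most among the 7, and that of Cish because it is the usual reporter of STAT5 activity. The first is chr3:37125955-37126204 on the minus strand, the 250 bases upstream of the Il2 start, with capitals for each GGAAA on either strand, the core that NFAT factors bind. The other is chr9:107296559-107296678 on the plus strand, 100 bases before and 20 after the Cish start, with capitals for each TTCNNNGAA, the palindrome that STAT5 dimers bind.
Il2: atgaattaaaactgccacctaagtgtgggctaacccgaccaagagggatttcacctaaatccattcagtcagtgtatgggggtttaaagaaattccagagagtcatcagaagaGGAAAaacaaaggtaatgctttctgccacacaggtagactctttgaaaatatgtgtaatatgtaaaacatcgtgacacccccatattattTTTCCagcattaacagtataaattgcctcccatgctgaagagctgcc
Cish: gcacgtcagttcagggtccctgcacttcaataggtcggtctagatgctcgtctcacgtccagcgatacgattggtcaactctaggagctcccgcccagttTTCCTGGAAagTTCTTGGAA
The 2 NFAT cores of Il2 begin 137 and 47 bases before the start (positions -137 and -47). The 2 STAT5 palindromes of Cish begin at positions 1 and 12, counted from the annotated start as 1. Of 32851 promoter windows of this length, 8.30% held at least 1 TTCNNNGAA and 0.457% held 2 or more. Among the 8 windows of the genes described here, only that of Cish held it. The short GGAAA core was common, in 61.3% of all windows and in 6 of these 8. The AP-1 motif TGANTCA was in 7.81% of all windows and in 0 of these 8. A match is only a run of letters, and no binding was measured here.

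The 4 libraries held 20007042 to 25321455 reads recovered from the deposited values. DMSO replicate 2 stood apart in its share of ribosomal RNA (Rn45s), 2.20% of its reads against 0.716% to 1.12% in the other 3. The 6 T cell markers Cd3e, Cd3d, Cd3g, Cd4, Cd28 and Lck were abundant throughout (2679 to 12424 normalised reads each), and none was called. Of 6 Th17 markers, 3 were called lower (Il17a, Il17f and Ccr6) and 1 higher (Il21), beside 14.7% and 12.8% of all tested genes. Il23r and Rora were not called, and the list median log2 fold change was -0.79. Ccr6 was at 953 and 1012 normalised reads in DMSO and at 455 and 416 with TMP269. Transcripts of other cells were also present. The CD8 T cell markers Cd8a and Cd8b1 summed to 299 and 391 normalised reads in DMSO and to 315 and 427 with TMP269, neither gene called. The summed level of 6 B cell markers, none of them at 0, was 3465 and 3618 normalised reads in DMSO and 1853 and 1886 with TMP269, and 5 of the 6 were called lower. Dendritic cell markers summed to 330.2 and 419 against 202 and 224, a fall that came from Flt3 (214 and 303 against 69.3 and 57.9), whereas Itgax and Xcr1 had positive log2 fold changes (0.83 and 0.98, neither called). Macrophage and monocyte markers summed to 137 and 116 against 304 and 358, a rise mostly from Cd68. Cd68 was called higher (97.2 and 83.2 against 263 and 299), whereas Csf1r and Itgam had negative log2 fold changes (-0.18 and -0.23, neither called). Lyz2, Cd14 and Emr1 had at most 15 reads in any library and were not tested. NK markers summed to 36.0 and 48.2 against 31.0 and 37.0, nearly all from Klre1, with Ncr1 at 0 or 1 read in each library. B cells and other leukocytes also express receptor chains and STAT5, and the part of these shifts in the results below was not tested. In such bulk RNA, fewer cells of a type and less RNA per cell cannot be told apart.

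Of the 7 genes, Il2, Stat5a and Cish rose with TMP269, and Il2ra, Il2rb, Il2rg and Stat5b were not called. Calls rest on limma fitted over 12535 genes, with a Benjamini-Hochberg adjusted p under 0.05. The 3 called genes were all higher, against a background of 12.8% of all tested genes called higher (1602 genes), 14.7% called lower and 27.5% called in either direction. In 6 of the 7 the TMP269 libraries lay wholly to one side of the DMSO libraries, which held for 66.6% of all tested genes and so says little by itself. The number called higher among the 7 was 2 without DMSO replicate 2, without TMP269 replicate 1 or without TMP269 replicate 2, as the Cish call was then lost.

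**Figure D1:**
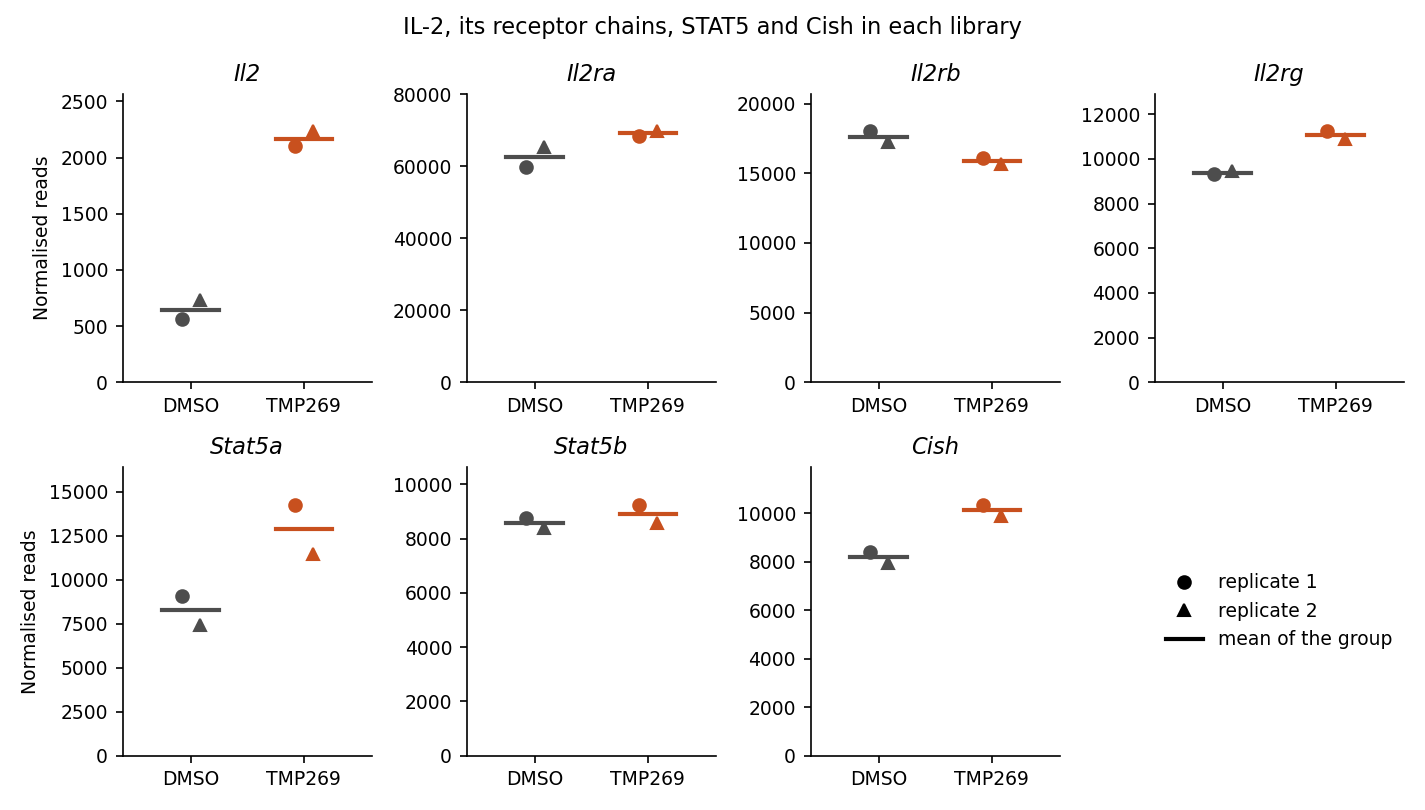
Normalised reads (y axis, from 0, with its own scale for each gene) of the 7 genes in the 2 DMSO and 2 TMP269 libraries. Points are single libraries and bars are group means. The TMP269 points of Il2 (2103 and 2236) sit far above those of DMSO (559.7 and 731), whereas the points of Stat5b overlap.

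Il2 itself was at 559.7 and 731 normalised reads in DMSO replicates 1 and 2 and at 2103 and 2236 in TMP269 replicates 1 and 2. The groups were far apart, with the lower TMP269 library 2.88 times the higher DMSO library, while the libraries of a group differed by at most 1.31-fold. The mean went from 645 ± 121 to 2170 ± 93.6 (SD, n = 2), a 3.39-fold rise with a 95% interval of 2.79 to 4.12 (limma adjusted p = 1.27e-04). Only 79 of the 12535 tested genes had a larger log2 fold change. These values rested on 606 to 2354 reads per library, so that counting error (95% Poisson interval) was about 8.05% either way at the lowest library and 4.06% at the highest, smaller than the difference between the groups. DMSO replicates 1 and 2 had similar Il2 reads (622 and 606), but their libraries held 25321455 and 20007042 reads in all. At these unequal depths similar reads mean unequal relative levels, which division by the size factors (1.11 and 0.829) brought out.

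The 3 receptor chains changed little and not in one direction. Il2ra, which encodes CD25, was at 59844 and 65289 normalised reads in DMSO and at 68486 and 69774 with TMP269. The TMP269 libraries were both higher, but the gap between the groups (1.05-fold) was smaller than the difference within the DMSO pair (1.09-fold). Il2ra was not called, with a fold of 1.11 and a 95% interval of 0.908 to 1.35 (limma adjusted p = 0.418), so the data leave room for a change of up to about that size. Il2rb, which encodes CD122, was at 18029.6 and 17259 in DMSO and at 16109.6 and 15649 with TMP269. Both TMP269 libraries were the lower ones, by a narrow margin (1.07-fold). Its fold was 0.900 with a 95% interval of 0.784 to 1.03, and it was not called (limma adjusted p = 0.228). Il2rg, the common gamma chain gene, was at 9338 and 9444 in DMSO and at 11248 and 10917 with TMP269. Its libraries agreed closely within each group, and the 2 groups did not overlap. Il2rg had a fold of 1.18 with a 95% interval of 1.04 to 1.34 and lay just outside the threshold in limma (adjusted p = 0.0549). It passed with edgeR on the recovered reads (adjusted p = 0.0433), with DESeq2 (0.0268), with limma-voom (0.0374) and with equal library totals (0.0167), but not when any 1 library was left out (0.115 to 0.325).

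The balance between chains was compared within each library, as ratios of normalised reads that do not allow for transcript length. The ratio of Il2ra to Il2rb was 3.32 and 3.78 in DMSO and 4.25 and 4.46 with TMP269. All 4 libraries kept the groups apart, with means of 3.55 ± 0.328 and 4.35 ± 0.147 (SD, n = 2). The ratio of Il2rb to Il2rg, added after the data were seen, was 1.93 and 1.83 in DMSO and 1.43 and 1.43 with TMP269, while that of Il2ra to Il2rg was 6.41 and 6.91 against 6.09 and 6.39 and so nearly met between the groups. Each of these 3 comparisons gave an exact two-sided permutation p of 0.333, the smallest that 2 against 2 libraries allow, so none can pass a threshold of 0.05.

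The 2 STAT5 genes, which lie next to each other on one chromosome, differed in their values. Stat5a was at 9087 and 7442 normalised reads in DMSO and at 14278 and 11453 with TMP269. Replicate 1 was the higher library in each group, yet the lower TMP269 library was still 1.26 times the higher DMSO library. The mean of Stat5a went from 8264 ± 1163 to 12866 ± 1997 (SD, n = 2), a 1.56-fold rise with a 95% interval of 1.27 to 1.91 (limma adjusted p = 0.00826). Stat5b was at 8777 and 8397 in DMSO and at 9256 and 8561 with TMP269, and the groups overlapped. The fold of Stat5b was 1.04 with a 95% interval of 0.909 to 1.18 (limma adjusted p = 0.672). Its upper bound lay below the lower bound for Stat5a. Of the reads of both genes together, Stat5a took 50.9% and 47.0% in DMSO and 60.7% and 57.2% with TMP269. The mean share went from 48.9% ± 2.74 to 58.9% ± 2.44 (SD, n = 2, exact two-sided permutation p = 0.333, the smallest possible here). The 2 genes are near-identical over much of their coding sequence, and the sources used here do not say how reads matching both were counted.

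**Figure D2:**
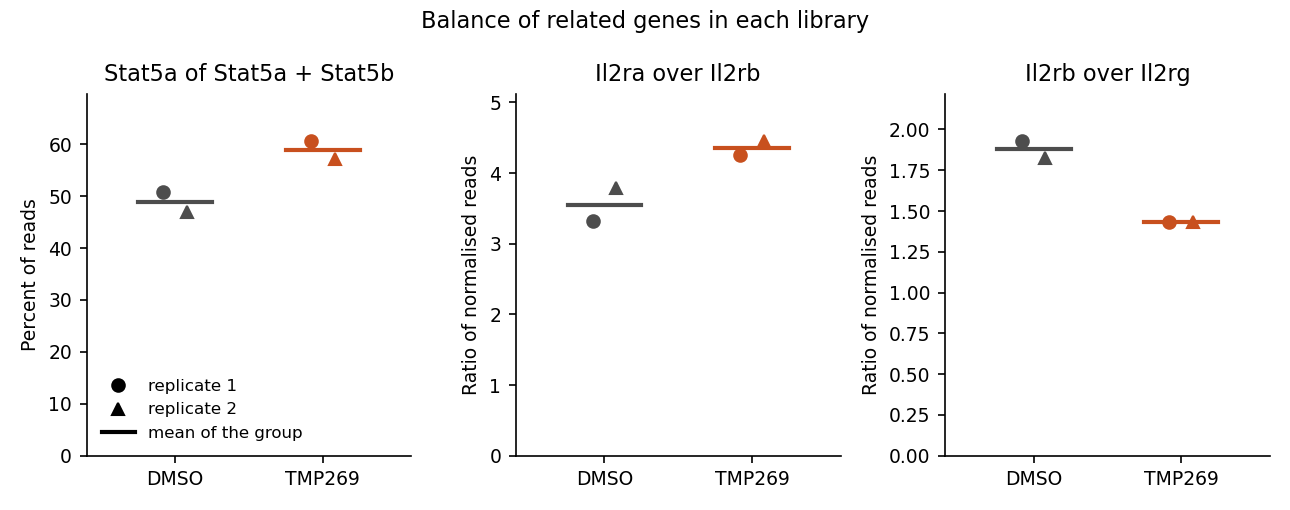
Balance of related genes in each library. The y axes, from 0, give Stat5a as a percentage of the reads of Stat5a and Stat5b, and the ratios of normalised reads of Il2ra to Il2rb and of Il2rb to Il2rg; points are libraries and bars group means. The Stat5a share was 47.0% to 50.9% in DMSO and 57.2% to 60.7% with TMP269.

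Cish, the feedback inhibitor shown above with its paired STAT5 palindromes, was at 8404 and 7957 normalised reads in DMSO and at 10354 and 9879.6 with TMP269. The 2 groups did not overlap, and the gap between them (1.18-fold) exceeded the difference within either group (1.06-fold at most). The mean went from 8180.4 ± 316 to 10117 ± 335 (SD, n = 2), a 1.24-fold rise with a 95% interval of 1.09 to 1.41 (limma adjusted p = 0.0242). The rise was small, since 2719 tested genes had a larger log2 fold change. Its call did not hold without DMSO replicate 2 (adjusted p = 0.101), TMP269 replicate 1 (0.187) or TMP269 replicate 2 (0.0767).

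**Figure D3:**
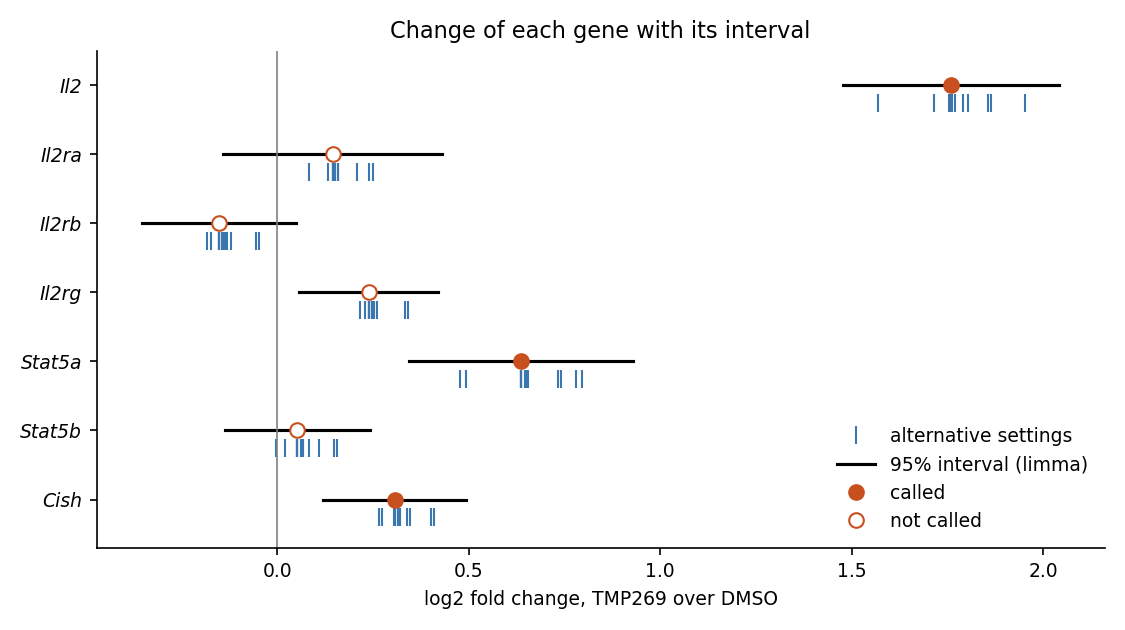
Log2 fold change, TMP269 over DMSO (x axis), of the 7 genes (rows). Circles are the limma estimates, filled where called, lines are their 95% intervals and blue ticks are the estimates under 14 alternative settings. Every tick of Il2 lies between 1.57 and 1.95 and every tick of Stat5a between 0.48 and 0.80.

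The transcription factors that act on Il2 were described next, as 2 lists taken from general knowledge of the gene. Like the other lists, they were chosen with earlier results of these data known. Of 11 factors known to switch Il2 on, 8 rose and 0 fell, against 12.8% and 14.7% of all tested genes, with a median log2 fold change of 0.33 beside 0.00 for all tested genes. Egr1, an early response factor, rose 1.99-fold, its libraries lying at 958 and 973 normalised reads in DMSO and at 1943 and 1903 with TMP269 (limma adjusted p = 1.65e-04). Fos, the AP-1 subunit gene, rose 2.24-fold from 92.6 ± 6.45 (limma adjusted p = 0.00191). Nfatc1, a calcium-dependent factor of the NFAT family, rose 1.49-fold (limma adjusted p = 0.00188). The 3 that were not called, named for completeness, were Nfatc3, Junb and the NF-kappaB subunit gene Nfkb1, with log2 fold changes of 0.16, 0.08 and -0.21. The count that rose was 5 without DMSO replicate 2 or without TMP269 replicate 1. Of 5 factors known to hold Il2 down, 1 rose and 1 fell, near the shares of all tested genes (12.8% and 14.7%). The median log2 fold change was -0.13, and -0.15 to -0.03 over the alternatives. Zeb1, Ikzf1 and Prdm1 were not called, with log2 fold changes of -0.18, -0.13 and -0.00. Crem, a repressor that binds cAMP response elements, was at 3959 and 4039 normalised reads in DMSO and at 2346 and 2659 with TMP269, well apart, and fell to 0.625-fold (limma adjusted p = 0.00118). Ikzf3, which encodes the Ikaros family member Aiolos, rose 1.20-fold (limma adjusted p = 0.0356). The Ikzf3 call was lost without a filter on low values (adjusted p = 0.0508) and without DMSO replicate 2 (0.137), TMP269 replicate 1 (0.255) or TMP269 replicate 2 (0.0958).

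Downstream of the receptor, the kinase genes were not called. Jak1 was at 8560 and 9310.2 normalised reads in DMSO and at 8654 and 9074 with TMP269, and Jak3 at 9876 and 7244 against 9277 and 8181, so both overlapped between the groups. The 95% interval of the fold was 0.869 to 1.13 for Jak1 and 0.828 to 1.28 for Jak3. Of 11 genes of kinases, adaptors and inhibitors of the receptor, 0 rose and 3 fell (median log2 fold change -0.01, and -0.07 to 0.09 over the alternatives), a share called that is near the 27.5% of all tested genes. The feedback inhibitor gene Socs3 was at 4772 and 4769 in DMSO and at 3213 and 3754 with TMP269, and fell to 0.728-fold (limma adjusted p = 0.00741). The adaptor gene Grb2 and the phosphatase gene Ptpn2 fell to 0.807-fold and 0.822-fold (limma adjusted p = 0.0212 and 0.0281). The other SOCS genes of the list were not called, with folds of 1.05 for Socs1 (limma adjusted p = 0.497) and 0.856 for Socs2 (0.222, but 0.0331 without DMSO replicate 1 and 0.0396 without TMP269 replicate 2). Cish and Socs3, both feedback genes of cytokine receptors, were called in opposite directions. Without TMP269 replicate 1 none of the 3 falls passed (adjusted p = 0.0526 for Socs3, 0.149 for Grb2 and 0.193 for Ptpn2). Without DMSO replicate 2 only that of Socs3 did (0.0998 for Grb2 and 0.121 for Ptpn2), and the Ptpn2 call was also lost without TMP269 replicate 2 (0.0596). Equal library totals ended the calls of Grb2 and Ptpn2 as well (0.0608 and 0.0947), and there 1 gene of the list rose and 1 fell. The gene that then rose was Gab2, an adaptor gene named after its values were seen, at 94.5 and 88.0 normalised reads in DMSO and 155 and 122 with TMP269. Its log2 fold change was 0.58 with a 95% interval of 0.15 to 1.02 (limma adjusted p = 0.0507, and 0.0452 with equal library totals). Gab2 passed in 6 of 14 alternatives, but not with edgeR (adjusted p = 0.0543), DESeq2 (0.138) or limma-voom (0.0604). With 1 library left out its log2 fold change was 0.41 to 0.76.

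Genes that IL-2 is known to induce through STAT5 were called in both directions. Of 18, 4 rose and 3 fell, beside 12.8% and 14.7% of all tested genes, so the share that fell was near the background. The median log2 fold change was 0.05, and -0.00 (without DMSO replicate 1) to 0.15 over the alternatives. Pim1, a kinase of survival and growth, was at 7105 and 6529 normalised reads in DMSO and at 9056 and 8408 with TMP269, a rise of 1.28-fold (limma adjusted p = 0.0159). Gzmb, which encodes granzyme B, rose 1.49-fold from 812 ± 163 and the cyclin gene Ccnd2 rose 1.31-fold from 23119.5 ± 842 (SD, n = 2, limma adjusted p = 0.0238 and 0.0252). Foxp3, the regulatory T cell factor, named here after its values were seen, rose from 355 and 286 normalised reads to 441 and 450.2 (log2 fold change 0.48, limma adjusted p = 0.0272). Beside Socs3, the growth regulator gene Myc fell to 0.805-fold and the cytokine gene Osm to 0.821-fold (limma adjusted p = 0.0176 and 0.0480). The survival gene Bcl2 was not called, at 6719 and 7722 against 7260.0 and 8131 (limma adjusted p = 0.507). Each of these 7 calls was lost without at least 1 library. Leaving out DMSO replicate 2 ended those of Pim1 (adjusted p = 0.0733), Gzmb (0.0990), Foxp3 (0.149) and Osm (0.188), so that 1 gene of the list rose and 2 fell. Leaving out TMP269 replicate 1 ended those of Pim1 (0.121), Ccnd2 (0.257), Socs3 (0.0526), Myc (0.0877) and Osm (0.300), and then 2 rose and 0 fell. Myc was also lost without TMP269 replicate 2 (0.124) or with equal library totals (0.0786), and Ccnd2 without DMSO replicate 1 (0.0614) or TMP269 replicate 2 (0.0583), where Foxp3 was lost too (0.0577). Osm passed neither with edgeR (0.0509) nor with any 1 library left out (0.0529 to 0.300). Of 7 genes that IL-2 is known to lower through STAT5, 2 rose and 2 fell. Among all tested genes 12.8% were called higher, 14.7% lower and 27.5% in either direction. Il17a and Il17f, the signature cytokine genes of these cells, fell to 0.401-fold and 0.479-fold (limma adjusted p = 1.27e-04 and 0.00113). Tcf7, which encodes the T cell factor TCF1, rose 1.44-fold from 3576 and 4601 to 5564 and 6127 (limma adjusted p = 0.0127). Il6st, the shared receptor chain gp130, rose 1.23-fold (limma adjusted p = 0.0449), a call lost without a filter on low values (0.0630), without DMSO replicate 1 (0.0734), DMSO replicate 2 (0.113) or TMP269 replicate 2 (0.337). The number that rose was 3 without TMP269 replicate 1 and 1 without any other single library.

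Other cytokines share the gamma chain with IL-2, and some of their genes rose. Of 10 such cytokine and receptor genes, 9 were tested, 3 rose and 0 fell, against 12.8% and 14.7% of all tested genes, with a median log2 fold change of 0.21. That median was 0.39 without DMSO replicate 1, 0.36 without TMP269 replicate 1 and 0.33 without TMP269 replicate 2. Il21, a cytokine that Th17 cells make, was at 12857 and 13877 normalised reads in DMSO and at 18654 and 17743 with TMP269 (1.36-fold, limma adjusted p = 0.00836). Il21r, the gene of its receptor, was at 5464 and 5016 in DMSO and at 7078 and 7239 with TMP269 (1.37-fold, limma adjusted p = 0.00493). In both genes the groups were clearly apart. Il4 rose 1.49-fold from 194 ± 11.6 normalised reads (SD, n = 2, limma adjusted p = 0.0159). The calls of Il21 and Il4 did not hold without TMP269 replicate 1 (adjusted p = 0.0608) and without TMP269 replicate 2 (0.0782) respectively. Il7, which T cells are not known to make, was at 0 reads in 3 libraries and at 1 in the other and was not tested. Il15, at 10 and 3 reads in DMSO and 11 and 12 with TMP269, passed the filter on low values only through its TMP269 libraries. Its log2 fold change (0.87) was the largest of the list, and it was not called.

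**Figure D4:**
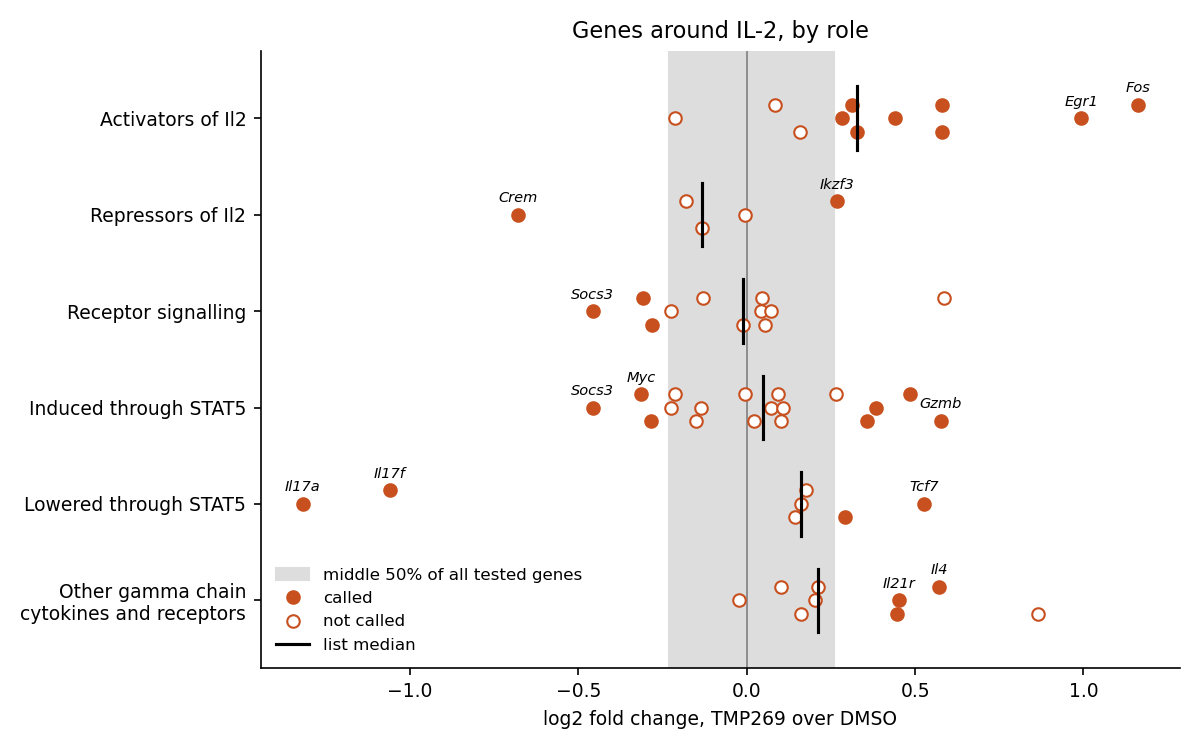
Log2 fold change, TMP269 over DMSO (x axis), of the tested genes of each list (rows), filled where called. Black bars are list medians and the grey band holds the middle 50% of all tested genes, from -0.23 to 0.26; the lists share some genes. The factors that switch Il2 on lie mostly to the right, with a median of 0.33, and the genes induced through STAT5 lie on both sides of 0, with a median of 0.05.

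The genes whose pattern was most like that of Il2 were sought by the Euclidean distance between log2 values over the 4 libraries, each gene centred on its own mean. The 5 nearest were Dusp18, Arhgap28, Bbc3, Apol7c and Tnfsf4, at distances of 0.159 to 0.261. Of these, 2 were well counted. Bbc3, which encodes the cell death protein PUMA, was at 294 and 316 normalised reads in DMSO and at 982 and 1182 with TMP269, and Tnfsf4, the ligand of OX40, at 179 and 183 against 595 and 595. Each rose about as much as Il2, 3.53-fold and 3.27-fold (limma adjusted p = 1.27e-04 for both). The other 3 rested on few reads, 8 and 8 in the DMSO libraries for Dusp18, 6 and 6 for Arhgap28, and 2 and 3 for Apol7c, and passed the filter on low values only through their TMP269 libraries. None of these 3 was called without TMP269 replicate 1 (adjusted p = 0.0794, 0.112 and 0.234) or replicate 2 (0.0683, 0.177 and 0.214). With 2 groups of 2 libraries, any gene with a rise of this size and tight replicates lies near Il2.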

How the data were processed

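The authors deposited 1 table with a normalised signal per gene for 4 RNA libraries (2 DMSO, with columns named WT that the labels tie to them, and 2 TMP269). The submitters' processing notes list mm9 as build and, with no role for each, DESeq2, HTSeq, TopHat2 2.1.0, Bowtie2 and CASAVA 1.4. The deposited values were reads divided by 1 size factor per library (1.11, 0.829, 0.967 and 1.05). Multiplying back gave whole reads for 100% of values (within 1e-06). The sources used here give neither the strand setting nor the treatment of multi-mapping reads.

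Genes reaching 10 in 2 or more libraries were tested with limma 3.58.1 in R 4.3.3, two-sided and with no covariate, on log2(value + 1); the empirical Bayes step used a trend, and folds are on this scale, which understates the change of low genes. The fit was also run on simulated data, with the same dispersion for every gene and far fewer changed genes than were called here. That run therefore does not measure its accuracy on these data. Alternatives were edgeR 4.0.16 and DESeq2 1.42.0 on the recovered reads, limma-voom, equal library totals, other pseudocounts and filters, the replicate number as a block, and each library left out. The 7 genes, the lists and the tests were chosen with earlier results of these data known. Named genes were the 7, then 8 of the pathway (Jak1, Jak3, Socs1, Socs2, Socs3, Pim1, Bcl2, Myc), up to 3 called members a list in each direction by the smallest p, and the 5 genes nearest to Il2.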

Additional observations from a re-analysis of the deposited data

How the results depend on the processing

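Over 14 alternatives Il2 and Stat5a stayed called and higher, and Il2ra and Stat5b stayed uncalled (the log2 fold change of Stat5b was 0.00 without TMP269 replicate 1). The number of called genes was 3406 with edgeR and 2078 to 3675 with 1 library left out (2078 without DMSO replicate 2, 2287 without TMP269 replicate 1). Genes called higher were 46.5% of calls, and 67.3% or 65.7% with equal library totals with or without Rn45s, which moved the median of all genes to 0.10 and 0.09. With 1 library left out, where a group's single library is taken to vary like the rest, the log2 fold change of Cish was 0.27 to 0.35 and its call was lost in 3 of 4 cases. Il2rg became called with edgeR (0.25), DESeq2 (0.25), limma-voom (0.25), equal totals (0.34) and equal totals without Rn45s (0.33). Same-numbered libraries deviated together across genes (r = 0.371, with genes not independent), but no label says that numbers pair them. With 2 libraries in each group the deviations mirror each other, so both pairs give the same r and count as a single comparison. With the replicate number as a block 6360 genes were called, and Il2rg (0.24) and Il2rb (-0.15, adjusted p = 0.0455) passed. Among the other named genes, over the settings that gave an adjusted p, a call was kept or stayed absent in 383 cases. A call was lost in 51 cases and gained in 9, and 0 calls changed direction. Dusp18, Arhgap28 and Apol7c had an adjusted p in only 13, 12 and 12 of the 14 alternatives, and their missing cases are not counted.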
